A study of Homo sapiens with 8 samples.

Results

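Genes of the cornified envelope and of squamous differentiation were followed in SV-HUC1, an established line of human urothelial cells immortalised with SV40. The 10 genes were TGM1, IVL, SPRR1A, SPRR1B, SPRR2A, SPRR2D, SPRR3, CALML3, CALML5 and CNFN, taken by name from the 58735 genes of the deposited count table. Total RNA was sequenced from 4 untreated control cultures and from 4 cultures given glucose oxidase (20 mU per ml) during 24 h. Glucose oxidase makes hydrogen peroxide from glucose, and the comparison asks how these cells respond to oxidative stress. All 8 cultures were of this 1 immortalised line, and the medium of both groups held serum.

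The cornified envelope is a layer of cross-linked protein that replaces the plasma membrane as cells of stratified squamous epithelia end their differentiation. Transglutaminases join its proteins by isopeptide bonds: involucrin is laid down early as a scaffold, and small proline-rich (SPRR) proteins act as cross-bridges. Urothelium does not normally cornify, but these genes are used as markers of squamous metaplasia and of squamous differentiation in bladder cancer.

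Of the 10 genes, CALML5 and IVL were lower and TGM1 was higher after glucose oxidase, and 6 were too low to judge. CALML5, calmodulin-like protein 5 of differentiating keratinocytes, went from 54.3 ± 18.5 to 23.6 ± 4.42 CPM (counts scaled to the library size; SD, n = 4). IVL, involucrin, went from 4.54 ± 2.15 to 1.35 ± 0.18 CPM (SD, n = 4). TGM1, the membrane-bound transglutaminase of keratinocytes, went from 4.33 ± 2.90 to 9.94 ± 5.94 CPM (SD, n = 4). IVL and CALML5 thus moved opposite to TGM1. These 3 genes passed edgeR's test with the replicate number as a block, which called 7.51% of all tested genes higher and 6.97% lower. None of the 3 passed edgeR's test on the filtered genes without the block.

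The IVL and SPRR genes lie close together on chromosome 1 in the epidermal differentiation complex, and their promoters share sequence features that the choice of genes did not use. RefSeq windows (build GRCh38.p14) from 250 bases before to 50 bases after the start site were found for 8 of the 10 genes; TGM1 and SPRR2D had no entry in the table. Both strands were searched for TGANTCA, the core of the AP-1 site, and for the letters TATAAA, which the general factor TBP binds in core promoters. The windows of IVL and CALML5, the lower genes, and of the paralogs SPRR1A and SPRR1B are shown 5′ to 3′ with matches to these motifs in capitals.
IVL, chr1:152908296-152908595, plus strand: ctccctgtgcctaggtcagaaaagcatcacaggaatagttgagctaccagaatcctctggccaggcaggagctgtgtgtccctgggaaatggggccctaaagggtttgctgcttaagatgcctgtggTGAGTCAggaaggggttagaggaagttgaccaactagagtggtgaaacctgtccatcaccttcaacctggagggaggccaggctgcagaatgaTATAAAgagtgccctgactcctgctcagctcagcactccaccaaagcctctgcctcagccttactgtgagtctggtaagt
SPRR1A, chr1:152983831-152984130, plus strand: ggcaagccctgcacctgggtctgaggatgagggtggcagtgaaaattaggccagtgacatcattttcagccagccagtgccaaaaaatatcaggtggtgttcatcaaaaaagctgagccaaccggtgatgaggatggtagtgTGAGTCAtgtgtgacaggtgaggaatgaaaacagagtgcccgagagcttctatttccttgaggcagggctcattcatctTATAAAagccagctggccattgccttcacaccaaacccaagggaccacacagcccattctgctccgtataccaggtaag
SPRR1B, chr1:153030953-153031252, plus strand: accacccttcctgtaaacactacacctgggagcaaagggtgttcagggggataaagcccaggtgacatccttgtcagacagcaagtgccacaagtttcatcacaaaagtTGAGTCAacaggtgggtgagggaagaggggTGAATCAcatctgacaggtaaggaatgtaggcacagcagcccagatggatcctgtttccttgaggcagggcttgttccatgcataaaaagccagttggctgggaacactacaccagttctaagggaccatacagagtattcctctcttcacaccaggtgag
CALML5, chr10:5499521-5499820, minus strand: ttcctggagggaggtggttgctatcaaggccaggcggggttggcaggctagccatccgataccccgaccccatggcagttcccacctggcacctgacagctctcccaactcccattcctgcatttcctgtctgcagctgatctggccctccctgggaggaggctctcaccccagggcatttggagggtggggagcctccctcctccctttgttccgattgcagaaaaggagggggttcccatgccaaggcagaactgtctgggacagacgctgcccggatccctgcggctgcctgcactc

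TGANTCA was present in the windows of all 5 IVL and SPRR genes in the table (IVL, SPRR1A, SPRR1B, SPRR2A and SPRR3), against 7.71% of 35116 RefSeq windows of the same length. In IVL the match began 123 bases before the start site, in SPRR1A 108 and in SPRR3 170 bases before it, and SPRR1B held 2 matches. TATAAA began 29 or 30 bases before the start site in IVL, SPRR1A, SPRR2A and SPRR3 and was not matched in SPRR1B. Over all windows 11.5% held TATAAA, and 1.31% held both motifs. The windows of CALML5, CALML3 and CNFN held neither motif. GGGCGG, a GC box, was matched 4 times in CNFN and 1 time in CALML3, and 44.95% of all windows held it. IVL and the SPRR genes are related copies, so their matches are not independent observations, and a match is a description of letters and not of binding.

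**Figure D1:**
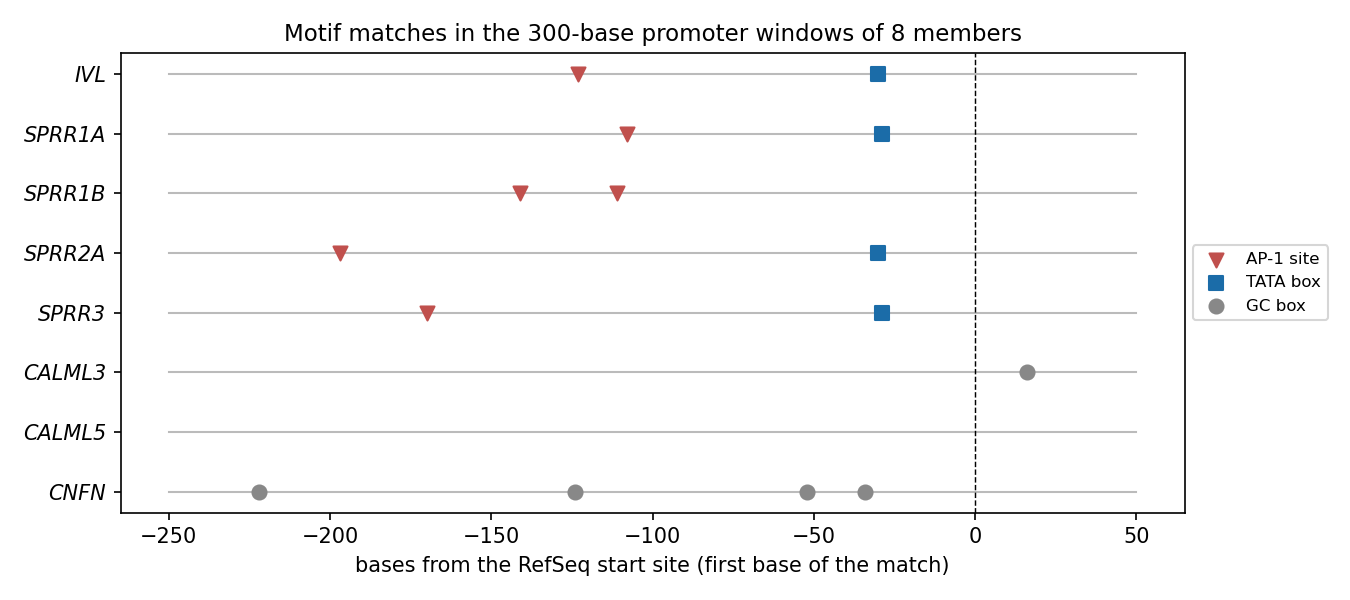
Positions of motif matches in the 300-base RefSeq windows of 8 genes, by distance of the first matched base from the start site. AP-1 cores are found in IVL and the 4 SPRR genes with a window, TATA boxes in IVL, SPRR1A, SPRR2A and SPRR3, and neither in CALML3, CALML5 or CNFN.

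Libraries held 21437267 to 27183692 counts. Filtering for low counts (edgeR's filterByExpr, at its default minimum of 10 counts) left 17413 genes, among them 5 of the 10: TGM1, IVL, CALML3, CALML5 and CNFN. With the group as the only term, edgeR's quasi-likelihood test called 0 genes higher and 0 lower (0% of those tested) at an adjusted p below 0.05, so none of the 10. In that fit 1284 genes had an unadjusted p below 0.05, among them IVL (unadjusted p = 0.000791, adjusted p = 0.453), CALML5 (unadjusted p = 0.000753, adjusted p = 0.453) and CNFN. Expression in same-numbered cultures deviated together from the group means (correlations of 0.503 to 0.678). Cultures of different number within replicates 1 and 2 or 3 and 4 did so too (0.443 to 0.652). A fit that has the replicate number as its block is given beside the first fit, and "rose" and "fell" refer to an adjusted p below 0.05 in that blocked fit. The block called 7.51% of tested genes higher and 6.97% lower. Among the 5 tested genes of the envelope group, 1 rose and 2 fell, both above these shares, though 5 genes are few and were chosen with earlier results known. When the block was replaced by a term that divides replicate numbers 1 and 2 from 3 and 4, 3.72% of genes were called higher and 3.07% lower, and TGM1, IVL and CALML5 kept their calls. That division came from expression values and not from the labels. DESeq2 without a block called IVL and CALML5 lower (0.211% of genes called lower, 0.190% higher) and did not call TGM1. The same 3 genes were called in DESeq2 with the block (8.53% of genes higher, 9.13% lower), with total counts (9.62% and 3.07%), with the gene length offset (5.93% and 6.64%) and with no filter (3.31% and 2.45%), each with the block. Without filter and block IVL and CALML5 were called (0.0453% of genes higher, 0.0402% lower).

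Culture identity was checked against marker genes. Of 15 urothelial and epithelial markers 13 passed the filter, with the uroplakin UPK1B at 50.6 ± 31.2 FPKM (fragments scaled to gene length and library size; SD, n = 4) in controls, while UPK3A had 2 counts and UPK1A 13 counts over the 8 libraries. Their summed level was 1587 to 2169 FPKM in controls and 1199 to 1342 FPKM in treated cultures, and KRT19 (log2 change -0.87), KRT5 and KRT8 fell while GATA3 and FOXA1 rose. With the dividing term KRT8 and GATA3 did not pass (edgeR adjusted p = 0.0998 and 0.0614), nor did KRT8 with total counts and the block (adjusted p = 0.0718). Of 10 markers of cornified skin, 8 did not pass the filter, and LOR and FLG2 had 0 counts in all libraries; their summed level was 10.004 to 17.5 FPKM in controls and 9.69 to 15.2 FPKM in treated cultures, most of it KRT10. Fibroblast markers summed to 1.77 to 2.68 and 1.67 to 2.67 FPKM, endothelial markers to 0.53 to 0.85 and 0.52 to 1.00 FPKM, and leukocyte markers, of which CSF1R fell, to 2.75 to 4.11 and 1.88 to 2.59 FPKM. The part of these markers in the results was not tested, and in bulk RNA fewer cells that express a gene and less RNA per cell cannot be told apart.

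RNA of IVL, which encodes the scaffold protein on which other envelope proteins are joined, fell. IVL (ENSG00000163207, chromosome 1, 152908545 to 152911886, plus strand, GRCh38) was counted over 2 exons. In controls 1 to 4 it had 83, 50, 119 and 125 counts, or 3.59, 1.97, 6.58 and 6.01 CPM. In treated cultures 1 to 4 it had 38, 32, 29 and 42 counts, or 1.28, 1.29, 1.22 and 1.62 CPM. Every treated culture was below every control, a placement found in 2.60% of tested genes, and none of the 10 had every treated culture above every control (2.42%). Controls differed among themselves, with a mean of 2.78 CPM in replicates 1 and 2 and 6.30 CPM in replicates 3 and 4, whereas the treated means were 1.28 and 1.42 CPM. The control level was therefore 2.80, 1.53, 5.40 and 3.71 times the treated level in pairs 1 to 4. The blocked edgeR fit gave a log2 change of -1.63 (SE 0.28, adjusted p = 0.000383), that is 3.09-fold lower. With a separate change fitted for each, cultures numbered 1 and 2 gave -1.07 and those numbered 3 and 4 gave -2.15 (log2), a difference that did not pass (edgeR unadjusted p = 0.0350, adjusted p = 0.381; 0.902% of genes passed). In the authors' deposited table IVL had a log2 change of -1.76 and an adjusted p of 0.0135, where 0.109% of listed genes were called lower and 0.0982% higher.

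CALML5 was the most abundant of the 10 genes per length and fell in all 4 pairs. It encodes a calcium-binding protein of the calmodulin family that is abundant in late keratinocyte differentiation. CALML5 (ENSG00000178372, chromosome 10, 5498697 to 5499555, minus strand) is a single exon of 859 bases. Controls 1 to 4 had 77.4, 40.3, 61.0 and 38.4 CPM, and treated cultures 1 to 4 had 28.6, 17.9, 23.4 and 24.4 CPM. The groups did not overlap, the lowest control being above the highest treated culture, a placement found in 2.60% of tested genes. A lower level in all 4 pairs was found in 17.1% of tested genes. The control level was 2.71, 2.25, 2.61 and 1.57 times the treated level in pairs 1 to 4. The blocked edgeR fit gave a log2 change of -1.16 (SE 0.15, adjusted p = 1.69e-05). Cultures numbered 1 and 2 gave -1.31 and those numbered 3 and 4 gave -1.02, a difference that did not pass (edgeR adjusted p = 0.743). The authors' deposited table gave a log2 change of -1.21 and an adjusted p of 0.0177.

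RNA of TGM1, whose protein cross-links involucrin and other envelope proteins at the plasma membrane, rose. TGM1 (ENSG00000092295, chromosome 14, 24249114 to 24264432, minus strand) had 165, 166, 36 and 35 counts in controls 1 to 4, or 7.13, 6.53, 1.99 and 1.68 CPM. Treated cultures 1 to 4 had 450, 373, 110 and 129 counts, or 15.2, 14.99, 4.62 and 4.98 CPM. The groups overlapped, because treated cultures 3 and 4 were below controls 1 and 2. Within each replicate number the treated culture was nevertheless higher, by 2.13, 2.30, 2.32 and 2.96 times, a rise in all 4 pairs that 16.9% of tested genes also had. The mean in replicates 1 and 2 was 3.72 times that in replicates 3 and 4 among controls and 3.14 times among treated cultures. With the block edgeR gave a log2 change of 1.25 (SE 0.19, adjusted p = 0.000106), that is 2.37-fold higher. Without it the log2 change was 1.19 with an SE of 0.56 (edgeR adjusted p = 0.677). The authors' deposited table, whose test DESeq2 without a block matches in its number of calls, gave a log2 change of 1.198 and an adjusted p of 0.485. Cultures numbered 1 and 2 gave 1.14 and those numbered 3 and 4 gave 1.39, a difference that did not pass (edgeR adjusted p = 0.846).

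CNFN, cornifelin, a small cysteine-rich protein of the cornified envelope, did not pass. CNFN (ENSG00000105427, chromosome 19, 42387019 to 42390287, minus strand) had 51, 36, 31 and 49 counts in controls 1 to 4, or 2.20, 1.42, 1.72 and 2.36 CPM. Treated cultures 1 to 4 had 36, 21, 29 and 37 counts, or 1.21, 0.84, 1.22 and 1.43 CPM. Each treated culture was below its same-numbered control, as for 17.1% of tested genes, but the groups overlapped: control 2 lay just below treated culture 4. The log2 change was -0.71 (SE 0.30, edgeR adjusted p = 0.119 with the block and 0.663 without). Short genes as a whole tended downwards, with a median log2 change of -0.19 over the 1400 tested genes under 1000 bases, against -0.01 over all tested genes in the blocked fit. CNFN has 603 bases and CALML5 859. With an offset for gene length in the blocked fit, CNFN was at -0.46 (edgeR adjusted p = 0.343), CALML5 at -0.94 (adjusted p = 0.000206) and IVL, of 2153 bases, at -1.49 (adjusted p = 0.00198).

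**Figure D2:**
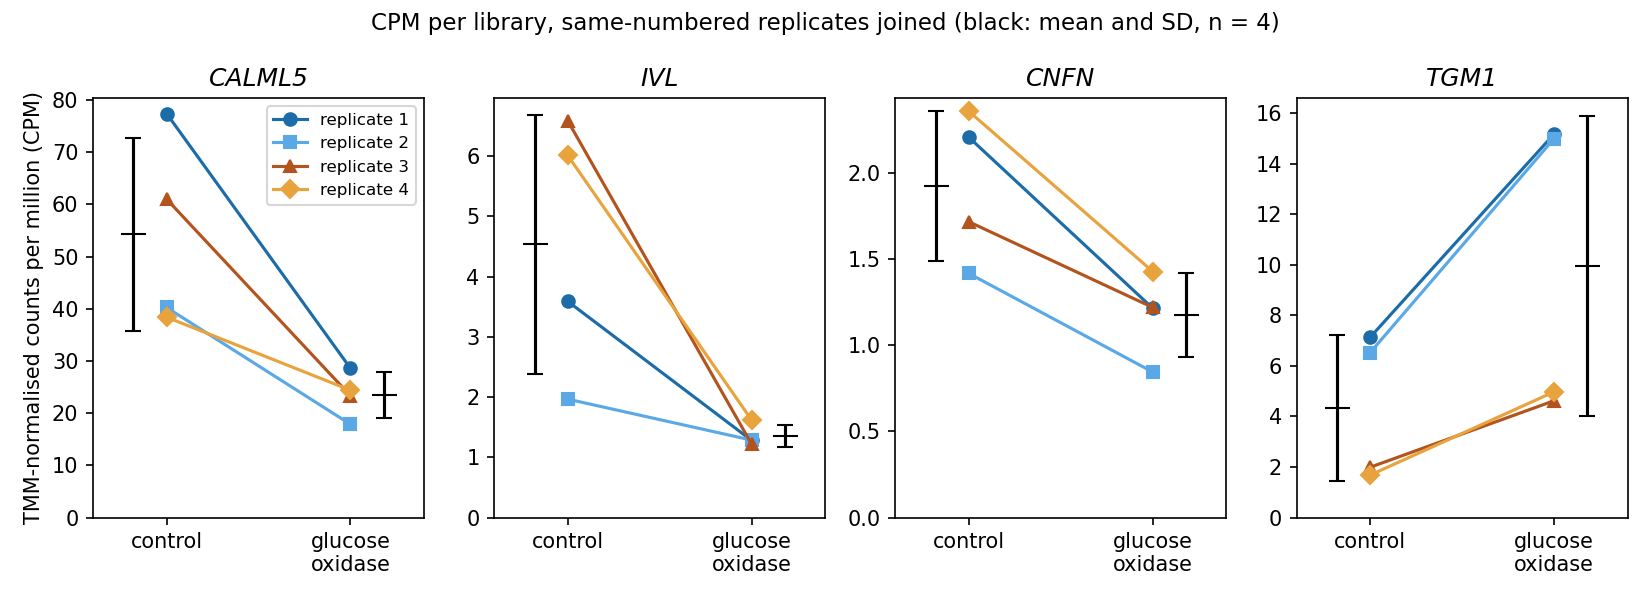
TMM-normalised CPM of CALML5, IVL, CNFN and TGM1 in each library, with lines joining control and treated cultures of the same replicate number and black bars for the mean and SD of 4 cultures. All lines fall for CALML5, IVL and CNFN and rise for TGM1, and TGM1 lies higher in replicates 1 and 2 than in replicates 3 and 4.

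The calls of CALML5, IVL and TGM1 held in all blocked fits run, with log2 changes of -1.33 to -0.94 for CALML5, -1.91 to -1.36 for IVL and 1.16 to 1.34 for TGM1. These 9 fits included DESeq2, scaling by total counts, no filter, the gene length offset and each replicate number left out.

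**Figure D3:**
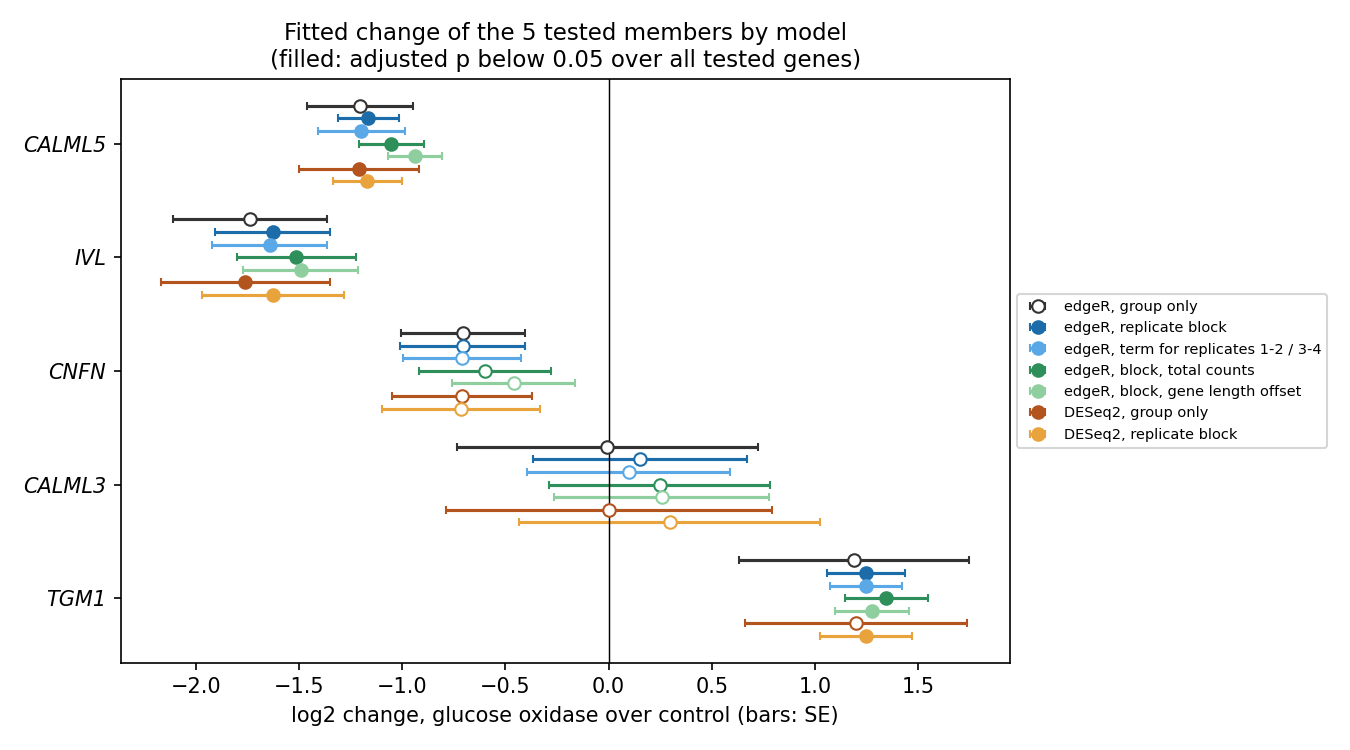
Fitted log2 change (treated over control) with its SE for the 5 tested genes under 7 models, filled where the adjusted p was below 0.05. CALML5 and IVL lie left of 0 and TGM1 right of 0 in all 7, and CNFN passes in none. CALML3, too low to judge, lies at -0.01 to 0.30 with SEs of 0.49 to 0.79.

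Of the 10 genes, 6 were too low to judge, because the filter removed them or because their mean was below 1 CPM in both groups. CALML3, a calmodulin-like protein of epithelial cells that binds the motor protein myosin X, passed the filter with a mean of 0.50 CPM without and 0.51 CPM with glucose oxidase. It had 27, 13, 5 and 1 counts in controls 1 to 4 and 17, 24, 7 and 5 counts in treated cultures 1 to 4. Counts were thus higher in replicates 1 and 2 of both groups. The log2 change was -0.01 without and 0.15 with the block (edgeR adjusted p = 0.999 and 0.886). CALML3 (ENSG00000178363, chromosome 10, 5524009 to 5526771, plus strand) overlaps the antisense gene CALML3-AS1 by 2238 bases, measured from start to end of each gene. CALML3-AS1 had 537 counts over all libraries, and the overlap of their exons was not measured. No source used here gives the strand setting of the counting, so reads from any exon bases that the pair shares cannot be told apart.

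The SPRR genes, whose proteins form flexible cross-bridges in the envelope, were near the limit of detection. SPRR1B (ENSG00000169469, chromosome 1, 153031202 to 153032900, plus strand) had 4, 7, 2 and 17 counts in controls 1 to 4 and 6, 2, 7 and 11 counts in treated cultures 1 to 4. SPRR3 (ENSG00000163209, 153001747 to 153003856, plus strand), an SPRR gene of oesophageal and other internal squamous epithelia, had 0, 1, 16 and 9 counts in controls and 6, 2, 1 and 4 counts in treated cultures. In SPRR3 the reads of controls came almost entirely from replicates 3 and 4, and those of treated cultures did not. SPRR1A (ENSG00000169474, 152985231 to 152985500, plus strand) had 1, 5, 3 and 2 counts in controls and 0, 0, 1 and 1 counts in treated cultures, 11 against 2 in all. SPRR1A was the third gene with every treated culture below every control in CPM, but at these counts a single read moves a culture across. Its edgeR adjusted p was 0.684 without and 0.757 with the block when no filter was used. SPRR2A (ENSG00000241794, 153056113 to 153057537, minus strand) had 2, 1, 1 and 1 counts in controls and 0, 1, 4 and 1 counts in treated cultures. SPRR2D (ENSG00000163216, 153039725 to 153041931, minus strand) had 0 counts in all 4 controls, which allows up to 3 counts or 0.127 to 0.139 CPM per library, and 0, 2, 3 and 3 counts in treated cultures. No fold change is given for SPRR2D, since both groups were at or under that limit. With no filter, SPRR1B, SPRR2A and SPRR3 also did not pass in either edgeR fit (adjusted p of 0.684 to 0.986).

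**Figure D4:**
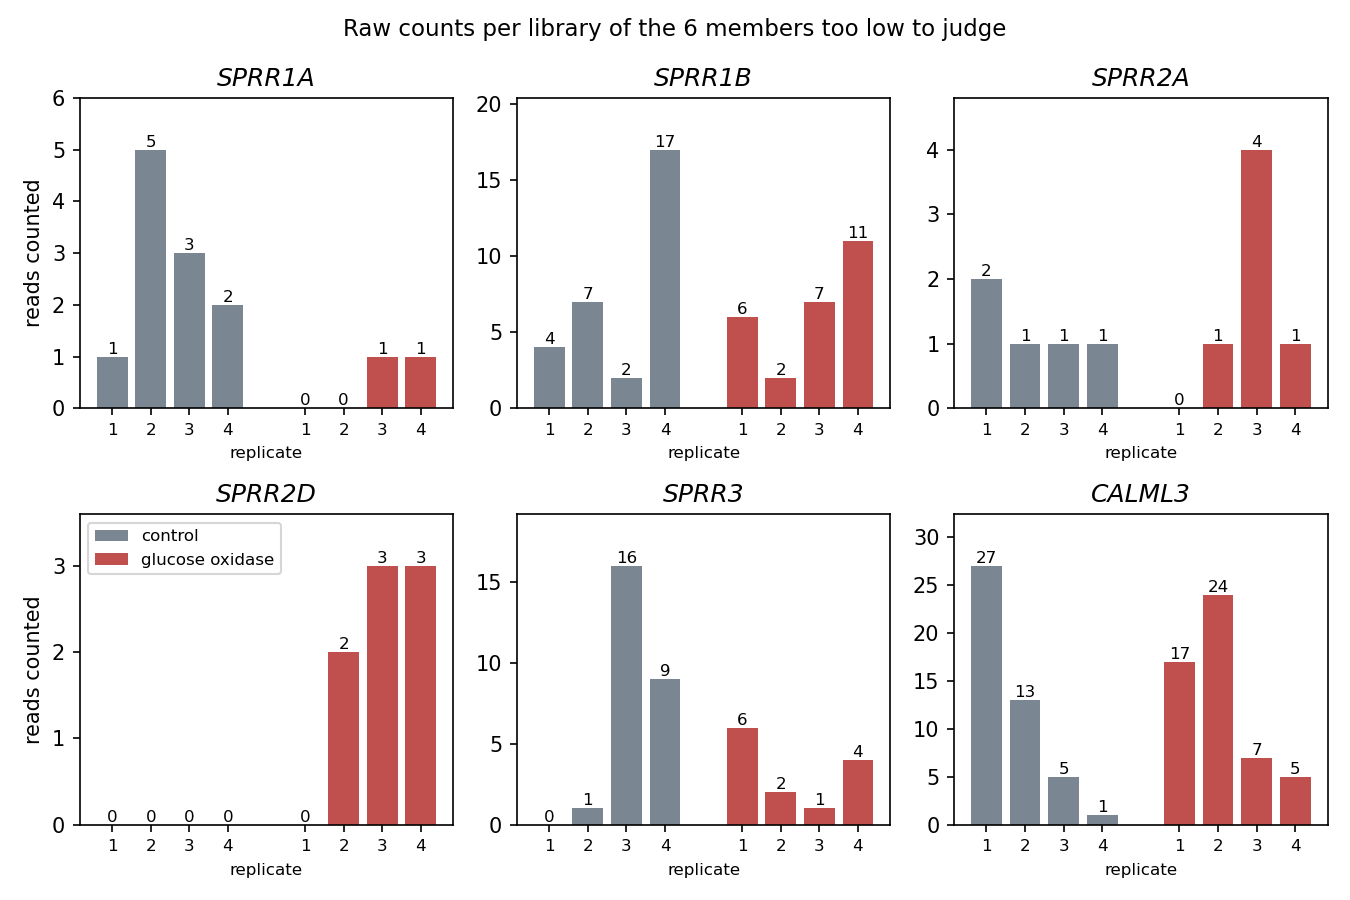
Raw counts per library of the 6 genes too low to judge, controls in grey and treated cultures in red, numbered by replicate. No library exceeds 27 counts for any of them, and SPRR2D is at 0 in all controls.

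Copies and annotation also limit what the SPRR counts can show. Of the 50-base windows of SPRR2A transcripts in GENCODE release 29, 32.7% also occur in other SPRR2 genes, and of those of SPRR2D 19.3%. SPRR1A shares 11.3% of its windows with SPRR1B, and SPRR1B 4.38% with SPRR1A. Windows of IVL, SPRR3, TGM1, CALML3, CALML5 and CNFN were shared with no other gene. SPRR1A is annotated there as 1 exon of 270 bases that holds only the coding sequence and its stop codon, against 2 exons and 620 bases for SPRR1B, and the RefSeq window of SPRR1A shown above ends upstream of the deposited start of the gene. The deposited coordinates and lengths of all 10 genes equal that annotation.

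Per length, the 10 genes ran from CALML5 at 62.4 ± 21.4 FPKM in controls down to SPRR2D, listed at 0. CNFN (3.15 ± 0.73), IVL (2.10 ± 1.04) and TGM1 (1.13 ± 0.74 FPKM; SD, n = 4) followed CALML5, and neighbours in this order overlapped in range from CNFN downwards. SPRR1B (0.55 ± 0.52 FPKM), SPRR1A (0.46 ± 0.25), SPRR3 (0.24 ± 0.29), CALML3 (0.18 ± 0.17) and SPRR2A (0.080 ± 0.028) came next and overlapped likewise. After glucose oxidase CALML5 still led at 27.04 ± 5.31 FPKM, and TGM1 (2.60 ± 1.53) and CNFN (1.92 ± 0.42) came before IVL (0.62 ± 0.085 FPKM; SD, n = 4). IVL was above TGM1 in controls 3 and 4 (3.11 and 2.78 against 0.543 and 0.449 FPKM) and below it in controls 1 and 2 (1.62 and 0.874 against 1.86 and 1.67 FPKM). In every treated culture IVL, at 0.566 to 0.745 FPKM, was below TGM1, at 1.24 to 4.00 FPKM.

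Around IVL, the epidermal differentiation complex held few genes with many counts. Of 64 protein-coding genes from S100A10 to S100A1 (chromosome 1, 151982915 to 153632039), 18 had 0 counts in all libraries and 26 had 1 to 99 counts in total. Of the 21 tested, 5 fell and 0 rose in the blocked fit, where 6.97% of all tested genes were called lower and 7.51% higher, and their median log2 change was -0.33 against -0.01 over all tested genes. IVL had the largest fall, and the other 4 were the calcium-binding S100A13 (-0.88), S100A2 (-0.95), S100A4 (-0.48) and S100A6 (-0.49). The calls of S100A4 and S100A6 were lost under total counts (edgeR adjusted p = 0.155 and 0.0818), with the gene length offset and with the term that divides the replicate numbers. With the gene length offset and the block, the median log2 change of the 14 tested S100 genes was -0.26, against -0.49 without the offset. S100A2 was higher in replicates 3 and 4 than in replicates 1 and 2 in both groups, as IVL was among controls. The 4 tested late cornified envelope genes, whose products enter the envelope last, did not pass. LCE1B, LCE1E and LCE1F had means below 1 CPM in both groups, too low to judge by the limit used for the 10 genes. LCE1F, the highest of the 4 by FPKM averaged over both groups, was at 0.49 ± 0.23 and 0.82 ± 0.087 CPM (SD, n = 4). Its log2 change was 0.79 (edgeR adjusted p = 0.240). None of the 7 other SPRR genes passed the filter, and all had under 10 counts over the 8 libraries, SPRR4 having 2. Of 10 loricrin and filaggrin type genes, TCHH alone was tested (log2 change -0.53, edgeR adjusted p = 0.182).

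Genes that work with the 10 were taken from 13 lists with 151 genes, of which 93 were tested. In the blocked fit 16 rose and 10 fell, where 7.51% of all tested genes were called higher and 6.97% lower, and with the dividing term 7 were higher and 7 lower (3.72% and 3.07%). Among other transglutaminases TGM2, the widely expressed tissue transglutaminase, was at 144.8 ± 29.7 CPM in controls and rose to 235.6 ± 20.96 CPM (SD, n = 4; log2 change 0.72, edgeR adjusted p = 0.00190), while TGM3 and TGM5 could not be called. Of 9 genes of envelope scaffold proteins and inhibitors PI3, which encodes elafin, a transglutaminase substrate, rose (log2 change 1.00). It did not pass with the term that divides the replicate numbers (edgeR adjusted p = 0.0844). SLPI, the highest of the 9 by FPKM averaged over both groups, was at 580.8 ± 218.7 and 546.5 ± 189.8 FPKM (SD, n = 4) and did not pass. PKP3, which encodes a desmosomal plaque protein, fell (-0.64). Of 10 tested genes of proteases and inhibitors of desquamation KLK5 (-0.61), KLK8 (-0.62) and CST6 (-0.62) fell, CST6 not with the gene length offset (edgeR adjusted p = 0.0794). Of 7 tested genes of suprabasal proteins CLIC3 fell (-0.63). Of 6 lipid barrier genes ABCA12 (0.99) and ALOXE3 (0.99; adjusted p = 0.0881 in edgeR with that term) rose, and of 5 tested squamous serpins SERPINB2 rose (1.43). SERPINB2 changed by 0.80 (log2) in cultures numbered 1 and 2 and by 2.10 in those numbered 3 and 4 (edgeR adjusted p of the difference = 0.0276). CALM2, a calmodulin, did not pass (log2 change -0.50, edgeR adjusted p = 0.0644), but did with the gene length offset (adjusted p = 0.0343).

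Of 24 tested regulators of squamous differentiation 11 rose and 1, CEBPA, fell (edgeR adjusted p = 0.0157, and 0.0551 with the dividing term), against 7.51% of all tested genes higher and 6.97% lower. Their median log2 change was 0.47 against -0.01 over all tested genes. KLF4, a transcription factor of the upper epidermal layers, was at 39.2 ± 25.4 CPM in controls and rose to 63.3 ± 13.9 CPM (SD, n = 4; log2 change 0.89, edgeR adjusted p = 0.00218). KLF4 changed by 0.30 (log2) in cultures numbered 1 and 2 and by 1.52 in those numbered 3 and 4 (edgeR adjusted p of the difference = 0.0157). NOTCH2 (0.67) and EHF (0.61) rose as well, NOTCH2 not with the dividing term (edgeR adjusted p = 0.0534). CEBPB, the highest by FPKM averaged over both groups, was at 138.2 ± 82.7 and 158.4 ± 39.5 CPM (SD, n = 4) and did not pass. With the dividing term, 4 regulators were higher and 0 lower (3.72% and 3.07% of all tested genes). With the block and the gene length offset they were 7 and 1 (5.93% and 6.64%), and with the block and total counts 12 and 0 (9.62% and 3.07%). In the same cultures CALML5 and IVL fell and TGM1 rose.

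**Figure D5:**
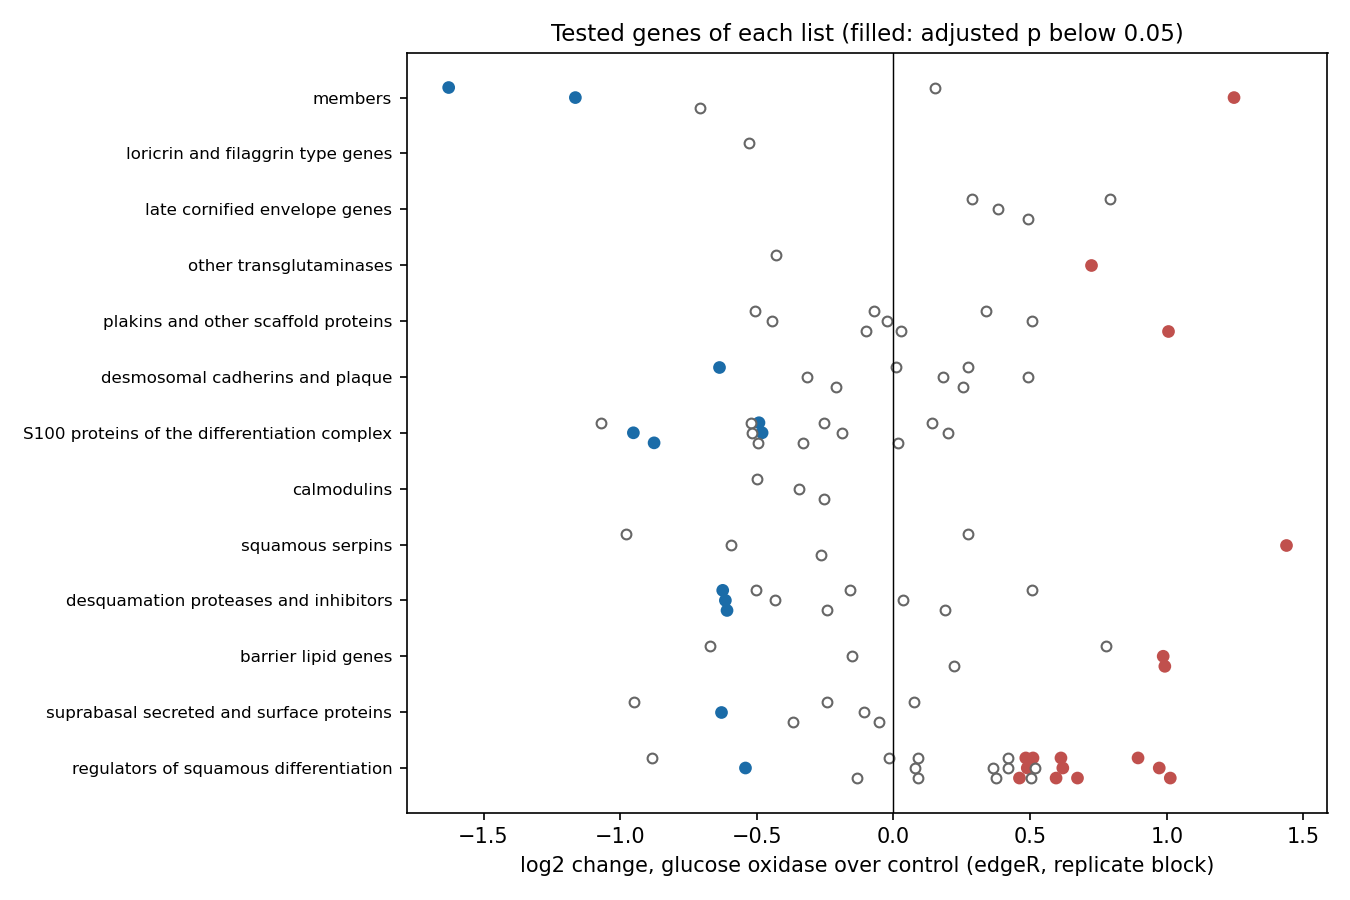
Log2 change (treated over control, blocked edgeR fit) of each tested gene in the group of 10 (top row) and in 12 lists of related genes, filled red or blue where the adjusted p was below 0.05. Filled points of the regulators lie right of 0 with 1 exception, and those of the S100, protease and suprabasal rows lie left of 0.

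The genes whose profile over the 8 libraries was most like that of TGM1 were WARS, RPS6KA2 and CALB2. These profiles include the difference between replicates 1 and 2 and replicates 3 and 4, as well as that between groups. Like TGM1, all 3 were higher in controls 1 and 2 than in controls 3 and 4, WARS being at 356, 383, 92.7 and 112 CPM in controls 1 to 4. Likeness was the mean absolute difference of log2 CPM centred per gene, which was 0.20, 0.22 and 0.23 for these 3 against a median of 0.90 over 10881 protein-coding genes of at least 5 CPM. For CALML5 they were KRT13, a keratin of stratified internal epithelia (0.17), LTC4S (0.19) and NUDT16L1 (0.20), against a median of 0.63.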

How the data were processed

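Whole-number counts per gene, not normalised, were deposited by the authors for 8 libraries, with FPKM per gene and a comparison table. GRCh38.p13, DESeq2 1.20.0, featureCounts 1.5.0-p3 and HISAT2 2.0.5 are listed in the submitters' processing notes, and the strand setting is not given there. Group means of signal normalised by size factors stand in the deposited comparison table, with a log2 fold change, a p-value and an adjusted p-value. SPRR1A, SPRR2A, SPRR2D and SPRR3 stand there at an adjusted p-value of 1. The deposited FPKM carry the authors' library scaling and were used for levels between genes, for summed levels of marker lists in each group and as an alternative to CPM for ratios of group means.

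Counts of all genes were fitted with edgeR 4.0.16 under R 4.3.3 (TMM, filterByExpr, quasi-likelihood test, Benjamini-Hochberg over 17413 genes, threshold 0.05), with the group as the only term. DESeq2 1.42.0, a replicate block, other scalings, no filter, a gene length offset and left-out libraries were alternatives. CPM are TMM-normalised; the scripts were tested on simulated data. Design text speaks of independent experiments without tying equal numbers together. Deviations from group means correlated across genes at 0.532, 0.678, 0.590 and 0.503 for numbers 1 to 4, all above 0.1, and at 0.443 to 0.652 between different numbers within replicates 1 and 2 or 3 and 4. Pairing by number thus cannot be told apart from that division. Libraries of a group all differed beyond counting noise (chi-square over its degrees of freedom at least 10.9).

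The 10 genes and the lists were chosen with earlier results of these data known. Named genes were drawn from all 10 genes, up to 3 called genes of smallest adjusted p and the gene of highest FPKM, averaged over both groups, per list, and the 3 genes most like TGM1 and CALML5; other S100 genes, other members of lists and marker genes named were chosen after their values were seen. Limits for 0 counts cover counting error only.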

Additional observations from a re-analysis of the deposited data

Results flagged for a closer look

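Among 72 groups of 4 libraries (36 named and tested genes, 2 groups each), 2 had 1 library far from the other 3, and about 1 in 20 such groups would by chance. IVL was at 1.62 CPM in treated culture 4 and at 1.29 CPM or less in the other 3. S100A4 was at 14.1 CPM in treated culture 2 and at 19.6 CPM or more in the others.

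For 3 named genes outside the group of 10 the change differed between replicates 3 and 4 and replicates 1 and 2, a division taken from the expression values (edgeR test of the difference, which 0.902% of genes passed). SERPINB2 went up by 0.80 (log2) in cultures numbered 1 and 2 and by 2.10 in those numbered 3 and 4, a difference of 1.31 (adjusted p = 0.0276). KLF4 had 0.30 and 1.52, a difference of 1.22 (adjusted p = 0.0157). CEBPB had -0.17 and 0.93, a difference of 1.10 (adjusted p = 0.0370). In controls all 3 were lower in replicates 3 and 4 than in replicates 1 and 2, KLF4 being at 16.7 and 20.2 against 50.1 and 69.9 CPM.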

How the results depend on the processing

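Without the block edgeR called 0 of the 10 genes and 0 genes in all, also with DESeq2's size factors, total counts, the gene length offset and each single library left out. One of the 10 was called higher and 2 lower under the replicate block, the term for replicates 1 and 2 against 3 and 4, and the blocked fits with DESeq2, total counts, no filter and the length offset. DESeq2 without block and edgeR with no filter called 0 higher and 2 lower. Genes called higher and lower over the whole table were 1308 and 1213 with the replicate block, 648 and 534 with that term, 36 and 40 in DESeq2 without and 1222 and 1308 with the block, 1675 and 535 for total counts with the block, 18 and 16 with no filter, 1317 and 976 with no filter and the block, and 1032 and 1157 with the length offset and the block. Leaving out single libraries or replicate numbers gave 0 to 1 of the 10 genes higher and 0 to 2 lower, and 0 to 978 genes higher and 0 to 908 lower overall; with the block, leaving out replicates 1, 2, 3 and 4 in turn gave 917, 864, 593 and 978 higher and 717, 638, 507 and 908 lower. With total counts and the block, the median over all genes was 0.10 (log2). The cause of these differences was not tested.

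TGM1, IVL, CALML5 and CNFN kept their direction under all 23 alternatives. CALML3, at -0.01, turned to 0.15 with the replicate block, 0.10 with the term, 0.0028 and 0.30 in DESeq2 without and with the block, 0.068 and 0.25 for total counts without and with it, 0.037 and 0.22 with no filter, without and with it, and 0.11 and 0.26 with the length offset, without and with it, and 0.16 with the block and replicate 3 left out; single libraries left out gave -0.49 to 0.82, so its sign was not settled. Depth limits the 6 genes below 1 CPM, for which no change can be read.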
